A study of Mus musculus with 12 samples.

Results

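The transcripts of the autophagy machinery were followed in CT26 cells, a mouse colon carcinoma line, under starvation, oxaliplatin and both. Members were all genes with an Atg symbol followed by a number, plus 20 named initiators, lipid kinase subunits, ATG8 proteins, cargo receptors and lysosomal factors. Of 38 protein-coding RefSeq genes that met this rule, 33 had a probe set that the annotation gives to them alone, and these stand against 17097 genes tested in all. Optn, Map1lc3b, Atg4a, Atg4d and Sqstm1 were not analysed here, Atg4d and Sqstm1 because their probe sets carry several symbols. For each member the brightest such probe set over the 12 Affymetrix arrays was read, and 20 of the 33 had several to choose from. All cells came from 1 line and had 48 hours in their medium, with 3 arrays per group. STS+OXP cells had short-term starvation medium (0.5 g/L glucose, 1% serum) and oxaliplatin, a platinum drug that damages DNA. OXP cells had the drug in control medium (1 g/L glucose, 10% serum). STS cells had starvation medium and control (CTR) cells control medium, both without the drug. Oxaliplatin was added 24 hours after the change of medium, at 10 µM by the sample labels. The methods of the study give a range that includes this dose and its figure legends give higher ones, so the dose is not settled. Whether the 3 arrays of a group stand for independent cultures is not given in the sources used here, and p-values measure only the spread among these arrays.

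In macroautophagy a double membrane grows around cytoplasm, closes into an autophagosome and fuses with a lysosome, where the contents are broken down. The Ulk1 kinase complex starts the process, a lipid kinase complex around Pik3c3 and Becn1 marks the growing membrane, and conjugation enzymes attach ATG8 proteins to its lipid, where they recruit cargo receptors. Loss of nutrients and DNA damage are both known to induce the process, largely through changes in protein activity and localisation, which an array of transcripts does not measure.

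Signals are log2 values, so that a difference of 1 is a doubling of the signal, and a group mean was taken as background where it did not exceed the highest of 15 bacterial control probe sets on its arrays, which lay between 3.26 and 3.73. Rb1cc1, Atg10 and Atg4c were at background in all 4 groups and Atg16l2 in STS and CTR, which left 30 members measured above background in some group. Array OXP 1 stood apart in the balance of 3' and 5' signal, a sign of RNA quality, since its Gapdh signal was 3.85 higher at the 3' than at the 5' probe set, against -0.12 to 0.28 on the other 11 arrays, and its Actb signal 2.33 higher, against 0.84 to 1.33. Array OXP 2 lay closer to the STS+OXP arrays than to its own group over the members, with root mean square differences of 0.14 to 0.24 from STS+OXP arrays, 0.37 from OXP 1 and 0.28 from OXP 3. Of 7 epithelial markers Epcam (4.87 in STS+OXP, 4.66 under OXP, 4.83 under STS and 4.79 in CTR) and Cdx2 were above background in all groups, while Cdh1, Krt18, Krt19 and Vil1 were at background in all. Of 5 macrophage markers only Cd68, a lysosomal membrane protein that macrophages carry in abundance, was called between groups, with 5.22, 3.07 and 4.92 on OXP 1, OXP 2 and OXP 3, 2.93 to 3.42 on STS+OXP arrays and 2.93 to 2.95 on CTR arrays. Lyz2 and Ptprc were at background throughout, and the summed macrophage signal reached 5.54 in STS+OXP, 6.25 under OXP, 5.48 under STS and 5.59 in CTR. Of 4 fibroblast markers Dcn moved with the drug, at 3.94, 3.97 and 4.16 in STS+OXP and 3.93, 4.13 and 4.47 under OXP, against 3.18, 3.05 and 3.11 in CTR cells, where it was at background, and Col1a1 was higher in STS (0.34, adjusted p = 0.0233), while Lum was at background. The summed fibroblast signal lay at 6.04 to 6.12 in STS+OXP, 6.22 to 6.33 under both OXP and STS and 5.97 to 6.08 in CTR cells. The other called markers were lower than in CTR cells, Kdr of 3 endothelial ones in STS+OXP (-0.34), Cd79a of 2 lymphocyte ones in STS (-0.48) and the epithelial Krt18 at background in STS (-0.21), with Pecam1 and Cdh5 at background. The part of other cell types in the results was not tested, and fewer cells of a type cannot be told apart from less RNA per cell.

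Most of the measured autophagy genes were called higher than in CTR cells under oxaliplatin, with or without starvation, and few under starvation alone. Compared with CTR cells, 21 of 33 members were higher and 2 lower under OXP, where 17.5% and 13.9% of all genes were so called (limma, Benjamini-Hochberg adjusted p under 0.05). In STS+OXP cells 19 members were higher and 1 lower than in CTR cells, against 16.4% and 14.2% of all genes. Under STS alone 4 members were higher and 1 lower, with 9.75% and 6.74% of all genes in the background, so that the share of members, 12.1% higher and 3.03% lower, was near that of all genes. The median log2 difference from CTR over the members was 0.45 in STS+OXP, 0.53 in OXP and 0.080 in STS, while the medians of all genes tested were 0.00045, -0.014 and -0.034. Among the 30 members above background the counts were 19 higher and 1 lower in STS+OXP, 20 and 1 in OXP and 4 and 1 in STS. The shares of all genes, here and below, include genes at background, and no share was counted over genes above it. Members and all genes are therefore not matched for signal level, and how far this widens the contrast was not tested. These comparisons share the CTR arrays, so they are not independent of each other. The methods' t-test after Benjamini-Hochberg adjustment called far fewer members against CTR, 13 in STS+OXP, 4 in OXP and 3 in STS. The share of all genes called by that test was not counted, so the drop cannot be read as a result about the members. Without array OXP 1 the OXP count was 22 higher and none lower, with no share of all genes counted. Without OXP 2 it was 20 higher and 1 lower, against 17.8% and 13.1% of all genes. Atg101, Atg2b, Atg3, Atg16l1, Atg4b, Dram1 and Rb1cc1 were called in none of the comparisons.

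**Figure D1:**
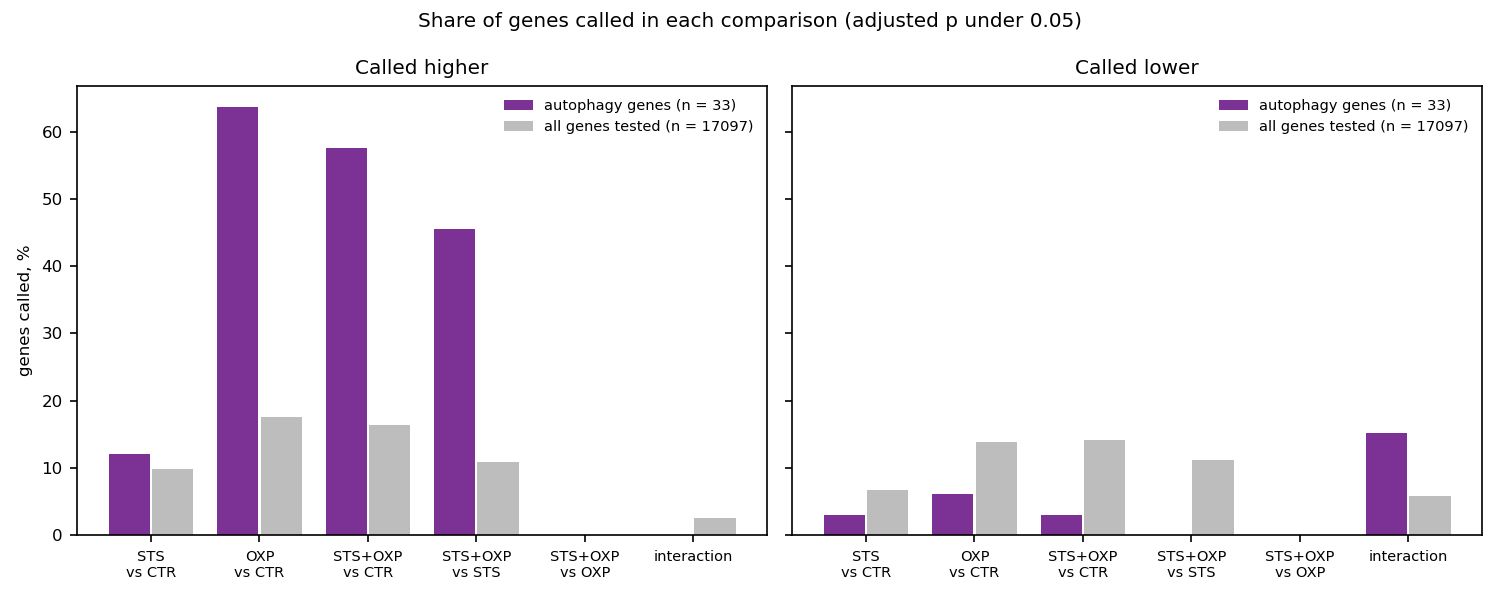
Share of genes called higher (left) and lower (right) in each comparison, in percent, for the 33 autophagy genes (purple) and all 17097 genes tested (grey), at an adjusted p under 0.05. Members were called higher in 63.6% of cases under OXP and 57.6% in STS+OXP compared with CTR, and in 12.1% under STS.

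**Figure D2:**
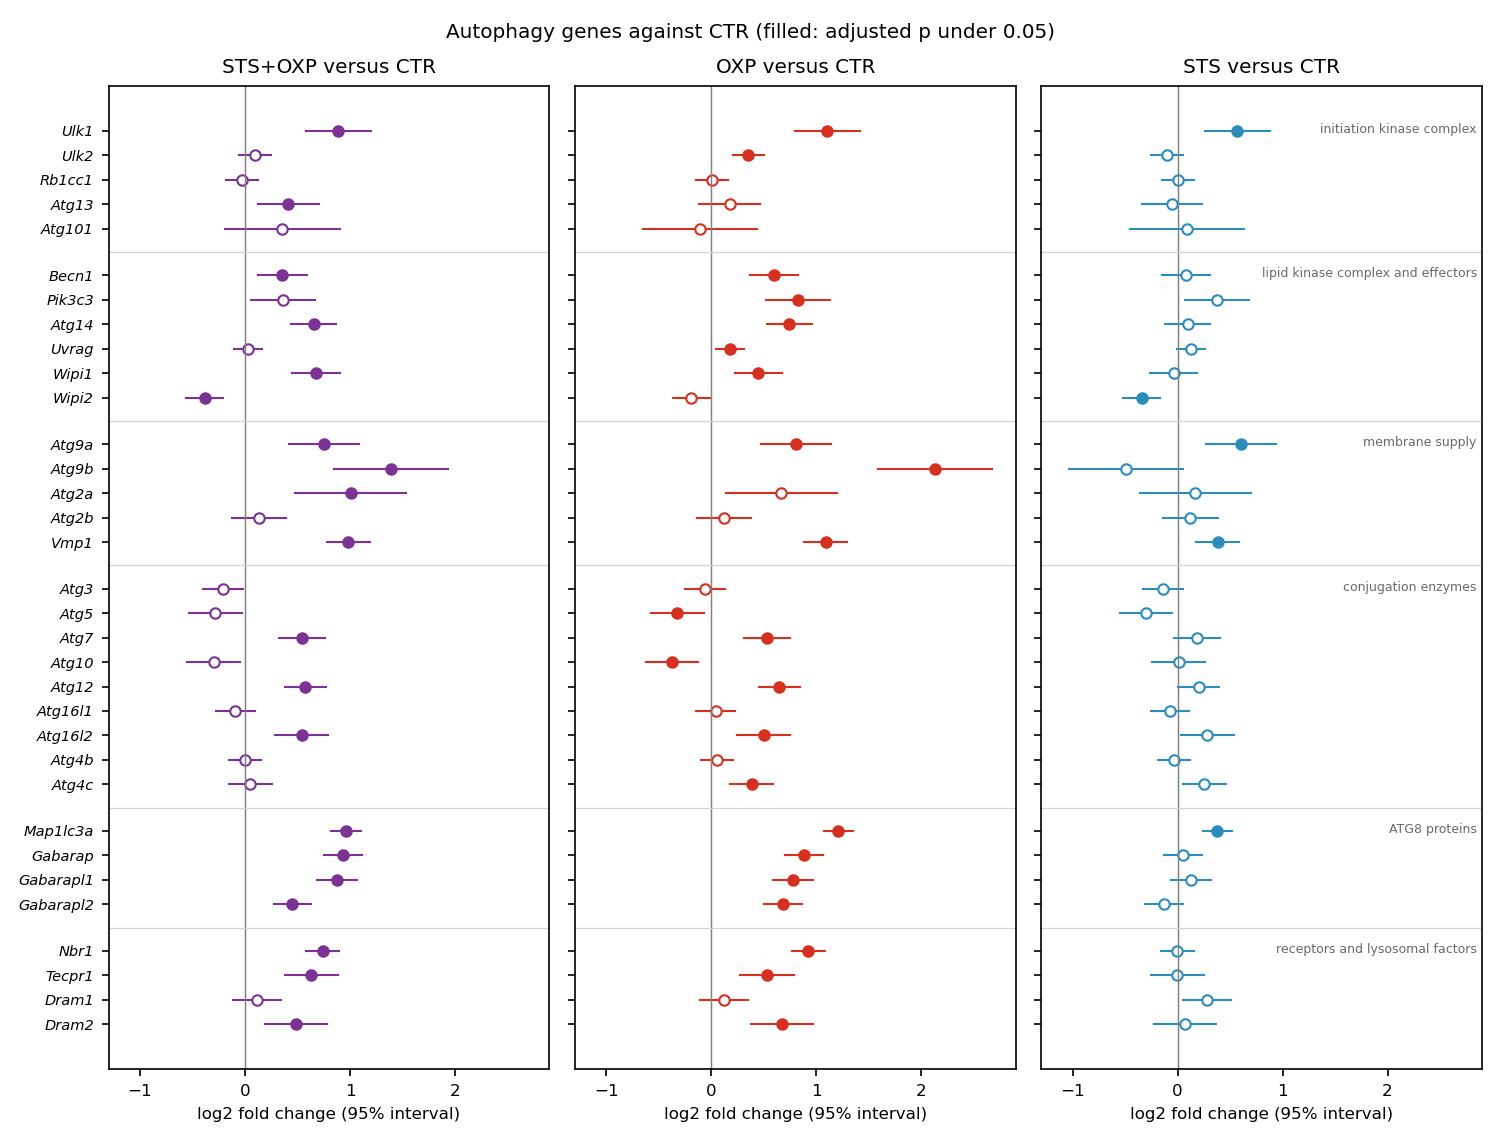
Log2 fold change of each autophagy gene against CTR in STS+OXP, OXP and STS cells, grouped by role, with 95% intervals from the fit over 12 arrays. Filled points have an adjusted p under 0.05, and Atg9b has the largest differences, 1.39 in STS+OXP and 2.13 in OXP.

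Transcripts of the ATG8 proteins, the ubiquitin-like proteins that are attached to the autophagosome membrane, rose together under oxaliplatin. All 4 that were measured were called higher in STS+OXP and in OXP cells than in CTR cells, and all 4 were higher in STS+OXP than in STS cells, with a median log2 difference of 0.91, 0.83 and 0.67. Map1lc3a, which encodes an LC3 protein, measured 9.07, 9.03 and 9.09 on the STS+OXP arrays, 9.35, 9.23 and 9.37 under OXP, 8.53, 8.45 and 8.47 under STS and 8.14, 8.07 and 8.11 in CTR cells. The groups did not overlap, and the order of their means was OXP, STS+OXP, STS and CTR. Its difference from CTR was 0.96 in STS+OXP (adjusted p = 7.64e-08), 1.21 in OXP (SE 0.065, adjusted p = 8.48e-09) and 0.38 in STS (adjusted p = 0.00112). Map1lc3a was read from a probe set of a type that can bind related transcripts, and its more specific probe set gave smaller differences of 0.71, 0.60 and 0.20, the last of them not called.

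Gabarap, the founding member of the other ATG8 branch, measured 10.80, 10.85 and 10.73 in STS+OXP, 10.56, 10.83 and 10.85 under OXP, 9.96, 9.91 and 9.86 under STS and 9.92, 9.85 and 9.81 in CTR cells. Arrays with the drug all lay above arrays without it, while STS and CTR arrays overlapped. The log2 difference from CTR was 0.93 in STS+OXP (adjusted p = 1.11e-06) and 0.89 in OXP (adjusted p = 1.75e-06), and STS differed from CTR by 0.051 (95% interval -0.13 to 0.23). Its close relative Gabarapl1 measured 8.86, 8.99 and 8.87 in STS+OXP, 8.60, 8.92 and 8.91 under OXP, 8.19, 8.17 and 8.12 under STS and 8.13, 7.97 and 7.99 in CTR cells. Again the drug arrays were the higher ones, with differences from CTR of 0.88 in STS+OXP (adjusted p = 4.03e-06) and 0.78 in OXP (adjusted p = 1.20e-05). Gabarapl2, a further member that is also known in transport through the Golgi, measured 8.39, 8.44 and 8.48 in STS+OXP, 8.74, 8.52 and 8.76 under OXP, 7.88, 7.89 and 7.81 under STS and 8.12, 7.93 and 7.92 in CTR cells. Every OXP array of Gabarapl2 lay above every STS+OXP array, and the differences from CTR were 0.45 in STS+OXP (adjusted p = 0.000689) and 0.68 in OXP (adjusted p = 1.89e-05).

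**Figure D3:**
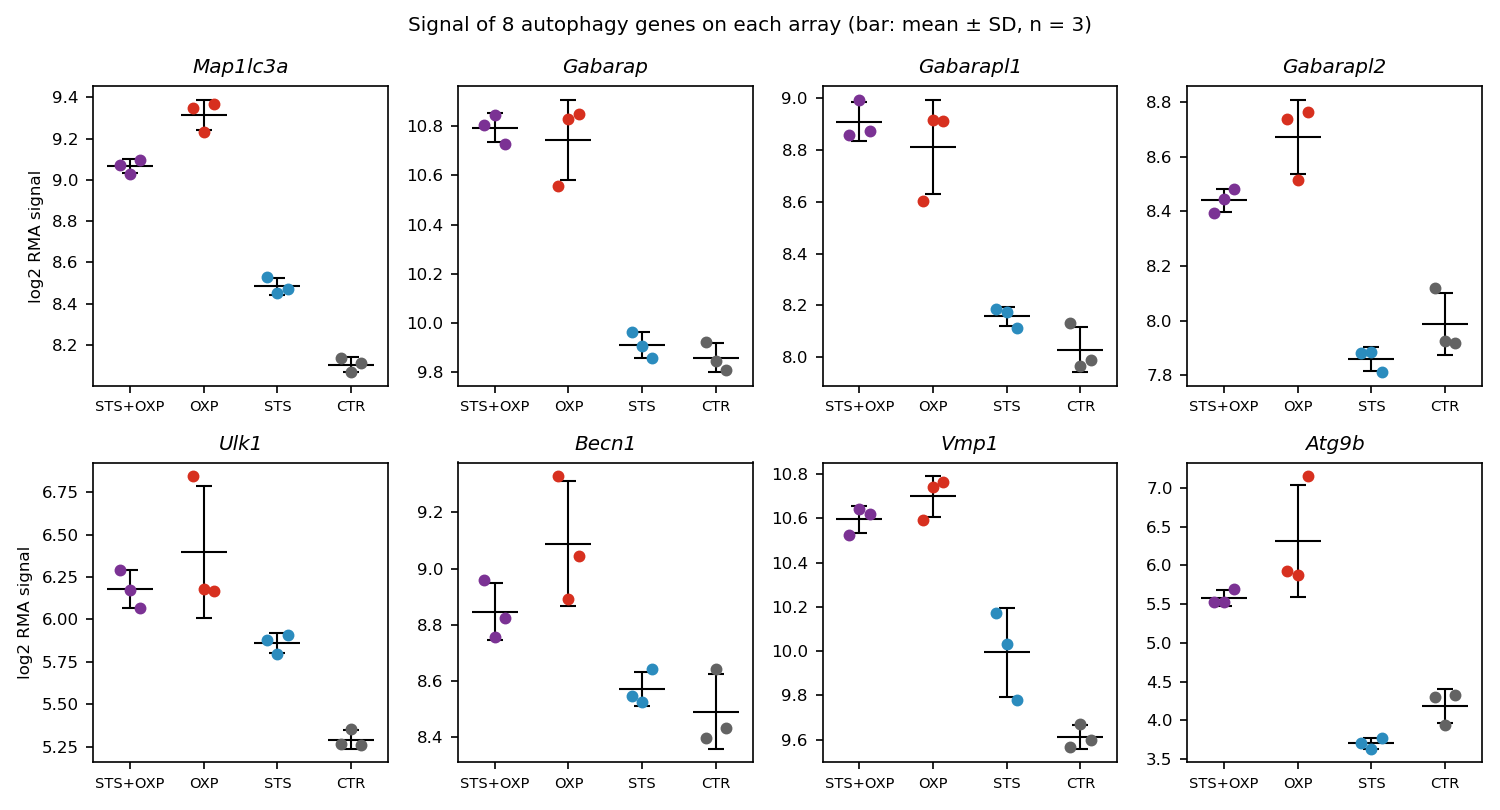
Log2 signal on each array for 8 autophagy genes in STS+OXP, OXP, STS and CTR cells, with the group mean and SD (n = 3). Arrays with the drug lie above CTR arrays for all 8 genes, and the OXP 1 array lies at 6.84 for Ulk1, against 6.18 and 6.17 on the other OXP arrays.

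The start regions of these genes are shown because the genes moved together. Sequences from RefSeq (GRCm38.p6) covered 27 of the 33 members in 31 windows of 250 bases before to 50 bases after a start site, without one for Map1lc3a. They were searched on both strands for the E-box CACGTG, which TFEB and related factors can bind, the GC box GGGCGG, the inverted CCAAT box ATTGG, the FoxO core GTAAACA, the AP-1 site TGANTCA, the element TGATGNAA of C/EBP and ATF factors, the NRF1 site and the p53 half-site. GC boxes were found in 18 of 27 members, against 35.7% of all 32851 windows, and inverted CCAAT boxes in 7 of 27, against 37.4%. An E-box was found in 4 members, Atg14, Atg7, Atg3 and Atg5, against 7.15% of windows, and a p53 half-site in Vmp1 alone, against 8.36%. The FoxO, AP-1, C/EBP-ATF and NRF1 letters were in none of the 27, and in 3.65%, 7.81%, 3.97% and 0.971% of all windows. A member was counted if any of its windows matched, while the shares are of single windows, so the units differ. A match is a description of the letters and no evidence that a factor binds. The stretches from 250 bases before the start site to its first 5 bases follow for the 3 GABARAP genes, 5' to 3', with GC boxes in either orientation in capitals. Gabarapl1 and Gabarapl2 carried 2 GC boxes each upstream of the start, and Gabarap carried no match to any of the 8 motifs.
Gabarap, chr11:69991120-69991374, plus strand: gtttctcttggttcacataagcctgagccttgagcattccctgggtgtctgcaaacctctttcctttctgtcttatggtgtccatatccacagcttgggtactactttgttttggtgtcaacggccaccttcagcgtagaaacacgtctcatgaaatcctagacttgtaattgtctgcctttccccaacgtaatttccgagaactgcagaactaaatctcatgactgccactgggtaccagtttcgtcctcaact
Gabarapl1, chr6:129532942-129533196, plus strand: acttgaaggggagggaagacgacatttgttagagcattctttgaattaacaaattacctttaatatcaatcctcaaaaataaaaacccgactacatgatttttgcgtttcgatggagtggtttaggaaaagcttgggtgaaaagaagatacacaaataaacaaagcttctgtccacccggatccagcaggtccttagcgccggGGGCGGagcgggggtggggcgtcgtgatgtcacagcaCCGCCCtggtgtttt
Gabarapl2, chr8:111940453-111940707, plus strand: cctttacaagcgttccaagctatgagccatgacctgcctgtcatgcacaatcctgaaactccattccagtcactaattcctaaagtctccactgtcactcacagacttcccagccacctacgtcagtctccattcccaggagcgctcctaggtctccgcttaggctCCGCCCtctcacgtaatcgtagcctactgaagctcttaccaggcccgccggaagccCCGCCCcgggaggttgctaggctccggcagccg

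Of the 5 initiation genes, 2 were called higher in STS+OXP and 2 in OXP cells, with Ulk1 in both. Ulk1, the kinase that starts autophagy and that mTORC1 restrains in fed cells, measured 6.29, 6.17 and 6.07 in STS+OXP, 6.84, 6.18 and 6.17 under OXP, 5.88, 5.80 and 5.91 under STS and 5.26, 5.35 and 5.26 in CTR cells. All treated arrays lay above all CTR arrays, and OXP 1 lay above the other OXP arrays. Its difference from CTR was 0.89 in STS+OXP (adjusted p = 0.000245), 1.11 in OXP (SE 0.14, adjusted p = 3.56e-05) and 0.57 in STS (adjusted p = 0.0144), and without OXP 1 the OXP difference was 0.88. Averaged over all its probe sets, Ulk1 differed from CTR by 0.50 in STS+OXP, 0.51 in OXP and 0.25 in STS, all called. The related kinase gene Ulk2 measured 6.54, 6.43 and 6.56 in STS+OXP, 6.85, 6.78 and 6.67 under OXP, 6.35, 6.26 and 6.33 under STS and 6.42, 6.42 and 6.40 in CTR cells. It was called higher in OXP than in CTR cells (0.35, adjusted p = 0.00120), while STS+OXP exceeded CTR by 0.096 (95% interval -0.054 to 0.25). Dimmer Ulk2 probe sets above background, with mean signals of 5.82 and 4.94, disagreed on STS+OXP. They gave -0.20 and 0.54 there, 0.16 and 0.49 in OXP and -0.074 and 0.40 in STS. Atg13, the adaptor of the kinase complex, was called higher in STS+OXP than in CTR cells (0.41, adjusted p = 0.0306, kept under 14 of 23 other settings) and not in OXP cells (0.17, adjusted p = 0.393). On OXP 1 Atg13 measured 5.16, against 5.83 and 5.62 on the other OXP arrays, and without OXP 1 the OXP difference was 0.36 with an adjusted p of 0.00869. A second Atg13 probe set, with a mean signal of 4.65, gave -0.017 in STS+OXP and -0.068 in OXP. The average of the Atg13 probe sets gave 0.20 in STS+OXP, which was not called. Atg101, which stabilises Atg13, spread from 3.63 to 5.01 over the OXP arrays and was not called.

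Of the 6 lipid kinase genes and their effectors, 5 were called higher in OXP than in CTR cells. In STS+OXP cells 3 were higher and 1, Wipi2, was lower than in CTR cells. Becn1, the scaffold of the lipid kinase complex, measured 8.96, 8.76 and 8.82 in STS+OXP, 9.33, 8.89 and 9.04 under OXP, 8.55, 8.53 and 8.64 under STS and 8.40, 8.64 and 8.43 in CTR cells. Drug arrays were again above the arrays without drug, and the differences from CTR were 0.36 in STS+OXP (adjusted p = 0.0208) and 0.60 in OXP (SE 0.11, adjusted p = 0.00058). A second Becn1 probe set gave 0.10 and 0.49, and the STS+OXP call was kept under 17 of 23 other settings. Pik3c3, the catalytic subunit, measured 4.83, 4.35 and 4.90 in STS+OXP, 5.43, 5.14 and 4.90 under OXP, 4.69, 4.72 and 4.74 under STS and 4.34, 4.28 and 4.38 in CTR cells. Its OXP difference was 0.83 (adjusted p = 0.000394), while in STS+OXP cells it was 0.36 (adjusted p = 0.0724) with 1 array, at 4.35, inside the CTR range.

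Atg14, which directs the lipid kinase complex to sites of autophagosome formation, measured 5.46, 5.27 and 5.33 in STS+OXP, 5.52, 5.28 and 5.53 under OXP, 4.88, 4.87 and 4.64 under STS and 4.80, 4.73 and 4.56 in CTR cells. Drug arrays and drug-free arrays did not overlap, and the difference from CTR was 0.65 in STS+OXP (adjusted p = 0.000129) and 0.74 in OXP (adjusted p = 4.17e-05). Its E-box lies across the start site and is shown with 2 GC boxes further upstream, all in capitals.
Atg14, chr14:47568430-47568684, minus strand: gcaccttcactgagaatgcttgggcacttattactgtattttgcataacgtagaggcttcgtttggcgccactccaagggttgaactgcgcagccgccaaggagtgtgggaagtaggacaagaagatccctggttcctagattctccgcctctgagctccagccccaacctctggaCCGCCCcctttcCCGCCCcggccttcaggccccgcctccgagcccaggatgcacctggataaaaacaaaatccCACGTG
Of the other E-box members, Atg7 was called higher with the drug and Atg3 and Atg5 were not.

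Wipi1, which reads the lipid mark that Pik3c3 makes, measured 7.69, 7.85 and 7.56 in STS+OXP, 7.31, 7.54 and 7.58 under OXP, 6.85, 6.94 and 7.18 under STS and 7.10, 6.98 and 6.996 in CTR cells. The difference from CTR was 0.67 in STS+OXP (adjusted p = 0.000171) and 0.45 in OXP (adjusted p = 0.00417). On its brightest specific probe set, with a mean signal of 4.18, both differences were near 0, at -0.059 and -0.017, while dimmer probe sets gave 0.64 and 0.37 in STS+OXP and 0.63 and 0.61 in OXP. Wipi2, the relative that recruits the conjugation enzymes, measured 6.92, 6.88 and 7.08 in STS+OXP, 7.24, 7.06 and 7.17 under OXP, 7.06, 7.05 and 6.90 under STS and 7.25, 7.39 and 7.39 in CTR cells. Wipi2 was called lower in both groups in starvation medium, with differences from CTR of -0.39 in STS+OXP (adjusted p = 0.00214) and -0.34 in STS (adjusted p = 0.0108), and -0.19 in OXP, which was not called. Its other probe set above background, with a mean signal of 6.80, gave 0.013 in STS+OXP, -0.61 in OXP and -0.088 in STS. With the average of all Wipi2 probe sets, which includes a set at background in every group, the calls in STS+OXP and STS were lost, at -0.18 and -0.15. Uvrag, a subunit of the lipid kinase complex that acts on later steps and on endosomes, was called in OXP at a small difference of 0.18 (adjusted p = 0.0402) and kept that call under 6 of 23 other settings, with an adjusted p of 0.0791 without OXP 1 and 0.0556 without OXP 2.

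The largest difference of a member from CTR was in a gene that supplies membrane, Atg9b in STS+OXP and in OXP and Atg9a in STS. Atg9b, a lipid scramblase of Atg9 vesicles, measured 5.52, 5.52 and 5.70 in STS+OXP, 5.93, 5.88 and 7.15 under OXP, 3.70, 3.63 and 3.77 under STS and 4.30, 3.93 and 4.33 in CTR cells. Drug arrays lay far above the others, OXP 3 highest, and STS arrays lay below CTR arrays without a call (-0.49, adjusted p = 0.239). Against CTR the difference was 1.39 in STS+OXP (2.63-fold, adjusted p = 0.000605) and 2.13 in OXP (4.38-fold, SE 0.25, adjusted p = 1.47e-05). The average of its probe sets gave 0.62 and 1.01, both called. The Atg9b gene, on chromosome 5 from 24384181 to 24392143 (GRCm38), shares 294 bases with Nos3, whose own signal stayed between 3.35 and 3.69 on all arrays. Atg9a, its widely expressed relative, measured 5.58, 5.71 and 5.64 in STS+OXP, 5.96, 5.68 and 5.47 under OXP, 5.57, 5.30 and 5.63 under STS and 4.53, 5.12 and 5.03 in CTR cells. All treated arrays were above all CTR arrays, with mean differences of 0.75 in STS+OXP (adjusted p = 0.00163), 0.81 in OXP (adjusted p = 0.000915) and 0.61 in STS (adjusted p = 0.0149).

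Vmp1, a membrane protein that acts with Atg9 and Atg2 in moving lipid to the growing membrane, measured 10.53, 10.64 and 10.62 in STS+OXP, 10.59, 10.74 and 10.76 under OXP, 10.17, 10.03 and 9.78 under STS and 9.57, 9.67 and 9.60 in CTR cells. Its arrays with the drug did not overlap STS arrays, and STS arrays did not overlap CTR arrays. Differences from CTR were 0.98 in STS+OXP (adjusted p = 2.05e-06), 1.09 in OXP (SE 0.094, adjusted p = 7.96e-07) and 0.38 in STS (adjusted p = 0.0125). A second Vmp1 probe set, with a mean signal of 4.53, went the other way, by -0.95, -0.69 and -0.67, and their average gave 0.016, 0.20 and -0.14, of which only the OXP value was called. The gene spans 86583858 to 86683836 on chromosome 11 (GRCm38) and contains the miR-21 gene Mir21a at 86584067 to 86584158. Positions of the probes were not given in the sources used here, so signal from a miR-21 precursor cannot be told apart from Vmp1 transcript. Atg2a, a lipid transfer protein, measured 6.38, 6.56 and 6.04 in STS+OXP, 5.25, 6.22 and 6.51 under OXP, 5.55, 5.47 and 5.47 under STS and 5.11, 5.34 and 5.53 in CTR cells. It was called higher in STS+OXP than in CTR cells (1.01, adjusted p = 0.00561), while OXP 1 lay inside the CTR range and the OXP difference of 0.67 was not called (adjusted p = 0.0534). Without OXP 1 that difference was 1.04 with an adjusted p of 6.02e-05.

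The start regions of Vmp1 and Atg9b are shown because Vmp1 holds the only p53 half-site found in the windows of the 27 members searched and Atg9b changed most. Capitals mark the half-site in Vmp1 and an inverted CCAAT box in Atg9b, which reads CCAAT on the strand shown.
Vmp1, chr11:86683832-86684086, minus strand: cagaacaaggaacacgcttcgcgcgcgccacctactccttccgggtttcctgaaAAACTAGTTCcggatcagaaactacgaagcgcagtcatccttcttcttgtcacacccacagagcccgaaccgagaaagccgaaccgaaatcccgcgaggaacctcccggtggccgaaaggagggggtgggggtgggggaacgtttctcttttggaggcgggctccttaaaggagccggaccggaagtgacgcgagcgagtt
Atg9b, chr5:24392139-24392393, minus strand: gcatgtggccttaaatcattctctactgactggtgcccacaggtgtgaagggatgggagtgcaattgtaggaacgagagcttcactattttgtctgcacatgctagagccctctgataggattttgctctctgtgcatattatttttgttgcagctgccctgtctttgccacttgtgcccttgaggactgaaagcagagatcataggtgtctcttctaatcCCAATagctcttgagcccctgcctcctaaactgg

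The conjugation enzymes were divided. Of 9 measured, 4 were called higher and 2 lower in OXP than in CTR cells, and 3 were higher in STS+OXP than in CTR cells. Atg12, the ubiquitin-like protein that is joined to Atg5, was higher by 0.57 in STS+OXP (adjusted p = 0.000217) and 0.65 in OXP (adjusted p = 7.37e-05). Atg7, the activating enzyme of both conjugation systems, was higher by 0.54 in STS+OXP (adjusted p = 0.000868) and 0.53 in OXP (adjusted p = 0.00105), although the average of its probe sets gave 0.19 and 0.16, neither of them called. Atg16l2, a relative of the scaffold Atg16l1, was at background in CTR and, against the background taken array by array, was at least 1.30-fold higher in STS+OXP and at least 1.26-fold higher in OXP cells. Atg5, by contrast, was lower in OXP than in CTR cells (-0.32, adjusted p = 0.0493), a call kept under 8 of 23 other settings and lost without OXP 1 (-0.21, adjusted p = 0.175) and without OXP 2 (-0.35, adjusted p = 0.062), and differed by -0.28 in STS+OXP (adjusted p = 0.0864). The E2-like enzyme Atg3 differed from CTR by -0.21 in STS+OXP and -0.058 in OXP, the scaffold Atg16l1 by -0.092 and 0.041 and the protease Atg4b by -0.0023 and 0.056, none of them called. Atg10 and Atg4c were called in OXP only at background signal, Atg10 by -0.37 and Atg4c by 0.38, and without OXP 1 Atg10 was not called (-0.31, adjusted p = 0.0709). Atg4c measured 2.80, 2.69 and 2.83 in STS+OXP, 3.32, 3.02 and 2.99 under OXP, 2.89, 2.92 and 3.13 under STS and 2.69, 2.74 and 2.75 in CTR cells, all below the control probe sets.

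Of the 4 receptors and lysosomal factors, Nbr1, Tecpr1 and Dram2 were called higher in both STS+OXP and OXP cells. Nbr1, a receptor that carries ubiquitin-tagged cargo, measured 8.66, 8.51 and 8.61 in STS+OXP, 8.87, 8.69 and 8.78 under OXP, 7.80, 7.83 and 7.93 under STS and 7.85, 7.86 and 7.86 in CTR cells. STS and CTR arrays overlapped, and the difference from CTR was 0.74 in STS+OXP (adjusted p = 2.59e-06) and 0.93 in OXP (SE 0.072, adjusted p = 3.10e-07), or 0.44 and 0.59 as the average of its probe sets, both called. Tecpr1, a tether between autophagosomes and lysosomes, measured 6.68, 6.60 and 6.55 in STS+OXP, 6.18, 6.64 and 6.71 under OXP, 6.05, 5.94 and 5.93 under STS and 5.91, 6.10 and 5.92 in CTR cells. The difference from CTR was 0.63 in STS+OXP (adjusted p = 0.000758) and 0.53 in OXP (adjusted p = 0.00289), the OXP value being 0.69 without OXP 1, and on its specific probe set it was 1.17 in STS+OXP and 1.00 in OXP. Dram2, a lysosomal membrane protein, was higher by 0.48 in STS+OXP (adjusted p = 0.0149) and by 0.67 in OXP (adjusted p = 0.00160). Its relative Dram1, a p53 target in human cells, differed from CTR by 0.11 in STS+OXP, 0.12 in OXP and 0.28 in STS, none of them called.

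Whether starvation alone changed these genes was asked by comparing STS with CTR. Atg9a, Ulk1, Vmp1 and Map1lc3a were called higher, with log2 differences of 0.61, 0.57, 0.38 and 0.38, and Wipi2 lower. The count of 5 was sensitive to single arrays, being 2 without CTR 1, without STS 1 or without STS 3 and 9 without OXP 1, which enters only through the shared estimate of spread. Pik3c3 was higher on every STS array than on any CTR array at a difference of 0.38 that was not called (adjusted p = 0.0907).

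The effect of oxaliplatin was also measured within starvation medium, by comparing STS+OXP with STS, which shares no array with the comparison of OXP with CTR. Of 33 members 15 were higher and none lower, where 10.8% of all genes were higher and 11.2% lower, and the median difference was 0.28, against 0.037 over all genes. The largest were Atg9b (1.88, adjusted p = 8.33e-05), Gabarap (0.88, adjusted p = 3.57e-06), Atg2a (0.84, adjusted p = 0.0248), Gabarapl1 (0.75, adjusted p = 3.21e-05), Nbr1 (0.74, adjusted p = 4.75e-06) and Wipi1 (0.71, adjusted p = 0.00019). In all, 13 members were called higher by the drug in both media, which is 86.7% of the 15 called in starvation medium and 61.9% of the 21 called in control medium. This overlap was not counted over all genes, so the percentages cannot be read as particular to the members. Both comparisons also use the same estimate of spread. Ulk1, Ulk2, Becn1, Pik3c3, Uvrag, Atg9a, Atg16l2 and Atg4c were called in control medium alone and Atg13 and Atg2a in starvation medium alone, which by itself does not show that the effects differed.

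That difference was tested as the interaction, the STS effect with the drug minus the STS effect without it. It was called negative for 5 of 33 members and positive for none, where 5.76% of all genes were negative and 2.53% positive, 8.29% in all, and the median was -0.16, against 0.029 over all genes. The genes were Map1lc3a (-0.63, SE 0.092, adjusted p = 0.000754), Atg4c at background (-0.59, adjusted p = 0.0151), Pik3c3 (-0.84, adjusted p = 0.0188), Ulk1 (-0.79, adjusted p = 0.0291) and Vmp1 (-0.49, adjusted p = 0.0397). In Map1lc3a, Pik3c3, Ulk1 and Vmp1 the STS difference without the drug was 0.38, 0.38, 0.57 and 0.38, of which that of Pik3c3 was not called. With the drug it was -0.25, -0.46, -0.22 and -0.10, none of them called. Arrays overlapped there for Ulk1 (95% interval -0.53 to 0.091) and Vmp1 (95% interval -0.31 to 0.10). The interaction thus shows a difference between the 2 effects and not that the starvation effect changed sign. The lower Ulk1 signal rested on OXP 1, without which STS+OXP differed from OXP by 0.0050 and the interaction was -0.56 (adjusted p = 0.00474). Seen from the drug, its effect in starvation medium was 0.58, -0.019, 0.32 and 0.60, and in control medium 1.21, 0.83, 1.11 and 1.09. Atg9a followed the same order without a call (-0.67, adjusted p = 0.0838). For the GABARAP genes the interaction was not called, at -0.0033 for Gabarap (95% interval -0.26 to 0.25), -0.029 for Gabarapl1 and -0.10 for Gabarapl2. On its specific probe set the Map1lc3a interaction was -0.086 (adjusted p = 0.885), with the average of all probe sets the Ulk1 and Vmp1 values were -0.26 and -0.042, not called, and the calls of Ulk1 and Vmp1 were kept under 12 and 8 of 20 other settings. The count fell to 3 when CTR 1, CTR 3, any STS array, STS+OXP 2 or STS+OXP 3 was left out, and it was 5 without OXP 1 and 4 without OXP 2, when Vmp1 was not called (-0.47, adjusted p = 0.0581).

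**Figure D4:**
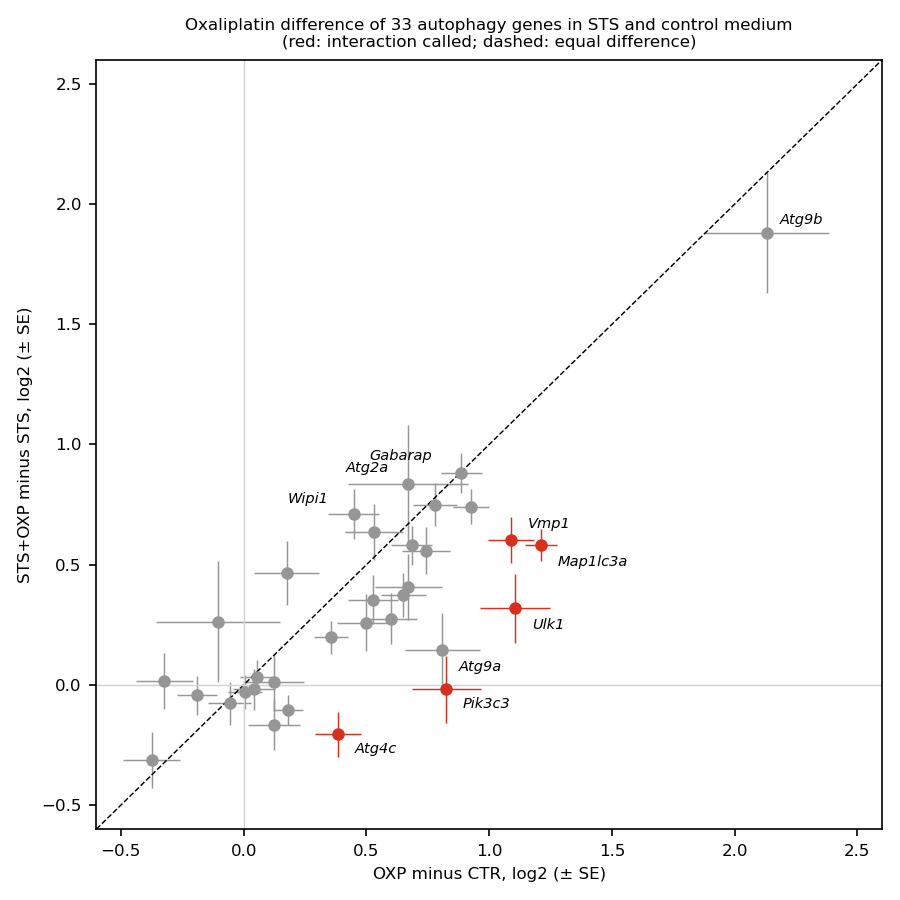
Log2 difference made by oxaliplatin in starvation medium (STS+OXP minus STS, vertical) against that in control medium (OXP minus CTR, horizontal) for 33 autophagy genes, with standard errors. Red points are the 5 members whose interaction was called, all below the dashed line of equal difference, with Pik3c3 at -0.019 and 0.83.

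Whether starvation added to oxaliplatin was asked by comparing STS+OXP with OXP. No member was called by limma in either direction, as was true of nearly all genes, of which 0.00585% were higher and 0.00585% lower, 0.0117% in all. At an unadjusted p under 0.05 there were 11 members, and the methods' t-test at its own threshold, without adjustment, called 3, all lower in STS+OXP. The share of all genes at these thresholds was not counted, so neither count can be read as a result about the members. The smallest p-values belonged to Map1lc3a (-0.25, 95% interval -0.39 to -0.11), Ulk2 (-0.26, 95% interval -0.41 to -0.11), Atg4c (-0.33, at background) and Pik3c3 (-0.46, 95% interval -0.77 to -0.16), all with an adjusted p of 0.257. On the specific probe set of Map1lc3a the direction turned, since STS+OXP exceeded CTR by 0.71 and OXP exceeded it by 0.60. For Ulk2 a dimmer probe set also turned, at 0.54 in STS+OXP and 0.49 in OXP, while another kept the direction, at -0.20 and 0.16. In these 4 genes, as read from the brightest probe set, every OXP array lay above every STS+OXP array. The comparison changed with OXP 2, the array close to the STS+OXP group. Leaving out an array for that closeness widens this comparison in advance, so the calls that follow are no test of it. The OXP arrays left were OXP 1, which stood apart in the balance of 3' and 5' signal, and OXP 3. Atg9b measured 5.93 and 7.15 on them. Without it, 4 members were called lower in STS+OXP than in OXP cells, against 4.44% of all genes, and none higher, against 2.38%. They were Atg9b (-0.96, adjusted p = 0.037), Map1lc3a (-0.29, adjusted p = 0.0239, on the less specific probe set), Gabarapl2 (-0.31, adjusted p = 0.0361) and Atg4c at background (-0.38, adjusted p = 0.0483).

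Other genes of the pathway were taken from 5 lists that cover upstream signalling, transcription factors, further initiation subunits, further receptors and fusion with the lysosome, of which 65 of 73 genes were measured. In STS+OXP 36 were higher and 7 lower than in CTR cells, in OXP 37 and 5, and in STS 20 and 8, where 16.4% and 14.2%, 17.5% and 13.9%, and 9.75% and 6.74% of all genes were so called. Their median differences were 0.31, 0.35 and 0.11, against 0.00045, -0.014 and -0.034 over all genes. Among the further initiation genes, Trp53inp1 and Trp53inp2, which bind ATG8 proteins and promote autophagosome formation, changed most. Trp53inp1, a known p53 target, measured 10.56, 10.46 and 10.53 in STS+OXP, 10.52, 10.51 and 10.48 under OXP, 7.37, 7.41 and 7.54 under STS and 6.17, 6.44 and 6.35 in CTR cells. That is a difference from CTR of 4.20 in STS+OXP, 4.18 in OXP and 1.12 in STS (adjusted p = 1.74e-12, 1.51e-12 and 4.65e-07). Trp53inp2 differed from CTR by 2.72 in STS+OXP, 2.75 in OXP and 1.94 in STS. Zfyve1, which marks the membrane sites where autophagosomes form, was higher by 1.08 in STS+OXP and 1.17 in OXP, and Pik3r4, the regulatory subunit of the lipid kinase, by 0.60 and 0.89.

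Of 15 fusion genes 12 were higher and 1, Vps16, was lower than in CTR cells both in STS+OXP and in OXP. Vps33a and Vps11, subunits of the tethering complexes, rose by 1.06 and 1.01 in STS+OXP and by 1.25 and 0.86 in OXP, and the fusion protein Vamp8 by 0.78 in STS+OXP and 0.95 in OXP. The lysosomal membrane protein Lamp1 measured 11.20, 11.24 and 11.21 in STS+OXP, 11.23, 11.21 and 11.25 under OXP, 10.84, 10.80 and 10.86 under STS and 10.26, 10.35 and 10.28 in CTR cells. Its arrays fell into 3 separate levels, since STS+OXP and OXP overlapped and STS lay between them and CTR.

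Among 19 further receptors, 10 were higher and 4 lower in STS+OXP than in CTR cells, 11 and 3 in OXP and 7 and 4 in STS, against the same shares of all genes (16.4% and 14.2%, 17.5% and 13.9%, 9.75% and 6.74%). Ccpg1, a receptor for the endoplasmic reticulum, was higher than in CTR by 2.42 in STS+OXP, 2.68 in OXP and 0.99 in STS. Pink1, the kinase that marks damaged mitochondria, was higher by 1.49 in STS+OXP and 1.75 in OXP. In the other direction, the glycogen receptor Stbd1 measured 3.67, 3.94 and 4.10 in STS+OXP, 4.07, 4.18 and 3.73 under OXP, 3.60, 3.77 and 3.57 under STS and 7.68, 7.28 and 7.58 in CTR cells. All treated arrays lay far below the CTR arrays, with differences of -3.61 in STS+OXP and -3.52 in OXP, and in STS, where Stbd1 was at background, it was at least 14.3-fold lower. The mitochondrial receptor Bnip3, a known hypoxia target, was called lower in all 3 groups, with differences from CTR of -1.92 in STS+OXP, -1.06 in OXP and -1.39 in STS. On Bnip3 the OXP arrays measured 9.17, 8.07 and 9.14, with OXP 2 next to the STS+OXP arrays at 7.93, 8.01 and 7.85.

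Of 15 upstream signalling genes, 5 were higher and 1 lower than in CTR cells both in STS+OXP and in OXP, and 3 and 2 in STS. The shares of all genes were 16.4% and 14.2%, 17.5% and 13.9%, and 9.75% and 6.74%. Rragc was higher by 0.46 in STS+OXP and 0.42 in OXP and Rheb differed by -0.23 and -0.24, while Mtor and Rptor were not called. Sesn3 and Sesn2, stress-induced inhibitors of mTORC1, were both called higher in STS+OXP (1.68 and 0.51) and in OXP cells (1.65 and 0.35) than in CTR cells. Under STS alone Sesn3 was higher (1.60) and Sesn2 was lower (-0.82, adjusted p = 4.68e-05). Tsc1, a subunit of the complex that holds mTORC1 in check, was higher by 0.81 in STS+OXP, 0.46 in OXP and 0.45 in STS, while Ddit4, a further inhibitor of mTORC1, was lower in STS (-0.74, adjusted p = 0.000138) and not called in STS+OXP or OXP. Of the 6 transcription factors, Foxo3, which drives several autophagy genes in starved tissue, was higher by 1.35 in STS+OXP, 1.43 in OXP and 0.65 in STS. Zkscan3, a repressor of autophagy genes, was also higher, by 0.61 in STS+OXP and 0.64 in OXP. Tfe3 was lower in STS than in CTR cells (-0.32, adjusted p = 0.0214) and Mitf lower in STS+OXP (-1.02, adjusted p = 0.00618), while Tfeb was not called in any of the 3 comparisons with CTR.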

How the data were processed

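RNA from CT26 cells was labelled with a 3' kit and hybridised to 12 one-colour Affymetrix mouse arrays, 3 in each of 4 groups, and the number of arrays limits the precision. The deposited values are log2 signals that the authors made by RMA (R 3.02 per the submitters' processing notes), which corrects background, equalises the distributions of the arrays and summarises the probes of a set, so that each difference is relative to the other genes of an array. Probe sets were named through GEO's platform annotation. Of 45141 probe sets, 28898 carried 1 symbol and 551 several, which were left out, and the brightest probe set stood for each of 17097 genes. A model of 4 group means over the 12 arrays was fitted by limma 3.58.1 (R 4.3.3, lmFit and eBayes, 8 residual degrees of freedom), two-sided, with Benjamini-Hochberg adjustment over all genes and calls at an adjusted p under 0.05. The interaction was (STS+OXP minus OXP) minus (STS minus CTR). Intervals are 95% intervals of the fit. A gene at background in 1 group has its fold given as a lower bound, the brighter group's mean over the mean, array by array, of the higher of that array's background and its own dim signal. Background came from 15 probe sets for bacterial lys, phe and trpn genes, without dap and thr, whose signals show that they were spiked in.

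The members and gene lists were chosen with earlier results of these data known. Values on each array are given for Ulk1, Becn1, the ATG8 genes and up to 8 called members with the largest differences per comparison (for STS+OXP versus OXP and the interaction, 4 with the smallest p), and up to 4 genes per further list are named by largest difference among those called. Array values of Atg14 and the arrays of Trp53inp1, Lamp1, Stbd1 and Bnip3 were added after their values were seen. So were the names Vps16, Tfeb, Rragc, Rheb, Mtor and Rptor. Marker lists covered epithelium, macrophages, endothelium, lymphocytes and fibroblasts. Alternatives were further scaling between arrays, the average of a gene's probe sets or its specific probe sets, a filter on dim genes, a trended robust fit, the replicate number as a block, only the groups compared, the methods' t-test and leaving out arrays.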

Additional observations from a re-analysis of the deposited data

Results flagged for a closer look

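In 5 members the difference between STS and control medium was not the same with oxaliplatin as without it, by the test of the interaction. The STS effect with OXP minus that without OXP was -0.63 on the log2 scale for Map1lc3a, -0.59 for Atg4c, -0.84 for Pik3c3, -0.79 for Ulk1 and -0.49 for Vmp1. Atg4c was at background in every group. The Map1lc3a value was -0.086 on its specific probe set and was not called there. With the average of all probe sets the values were -0.26 for Ulk1 and -0.042 for Vmp1, neither of them called, and over 20 other settings the call was kept under 12 for Ulk1 and 8 for Vmp1.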

How the results depend on the processing

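Of 68 member results that were called, 25 were called under every alternative run, and over 1544 alternatives 1381 kept direction and call, 159 kept the direction without the call and 4 reversed. The reversals were Vmp1 in STS versus CTR as the average of its probe sets (-0.14), and, on specific probe sets only, Wipi1 in STS+OXP (-0.059) and OXP (-0.017) versus CTR and Atg5 in OXP versus CTR (0.23).

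The number of members called in STS versus CTR was 5, and it was 3 with the average of all probe sets, 9 with only the arrays of both groups, 3 with the methods' t-test after Benjamini-Hochberg and 11 without OXP 1 and OXP 2 together. Leaving out 1 array gave 2 to 9. For STS+OXP versus CTR the number was 20, with 13 by the adjusted t-test and 17 to 23 without 1 array, and for OXP versus CTR it was 23, with 4 by the adjusted t-test and 20 to 22 without 1 array. For STS+OXP versus OXP it was 0, with 3 by the methods' t-test at its own threshold, 1 without OXP 1 and OXP 2 together and 0 to 4 without 1 array. For STS+OXP versus STS it was 15, with 11 to 18 without 1 array. For the interaction it was 5, with 3 by the average of all probe sets and 3 to 6 without 1 array. No shares of all genes stand beside these counts, so a change in them cannot be read as particular to the members. The cause was not tested. Where leaving out OXP 1 and OXP 2 left a single OXP array, that array was assumed to vary like those of the other groups.

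With the replicate number as a block the counts were 22 for STS+OXP versus CTR, 21 for OXP versus CTR, 5 for STS versus CTR, 0 for STS+OXP versus OXP, 16 for STS+OXP versus STS and 4 for the interaction, and none moved by over 1.5 times. Arrays of the same number showed no strong shared deviation, with 1 of 18 correlations over 0.1 (range -0.20 to 0.10). With so few arrays per group a weak shared deviation could be missed, so these values cannot decide whether the numbers pair the samples. Signals near background limit what can be read from Rb1cc1, Atg10, Atg4c and Atg16l2.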
